A study of Homo sapiens with 22 samples.

Results

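The loci of 9 genes that mark basal epithelial cells were examined in every list of enriched regions from ChIP-seq and ATAC-seq of 3 human prostate cancer cell lines. The genes were TP63, KRT5, KRT14, KRT17, COL17A1, LAMB3, ITGB4, ITGA6 and DST, out of 20136 protein-coding genes in the annotation. A locus was the gene body with 50 kb on each side, and a region belonged to it if any base lay inside. The 9 loci covered 1.819 Mb in 8 separate windows, because those of KRT14 and KRT17 overlap, and a region in that overlap counts for both genes. They held 956 of the 871377 regions in the 22 lists.

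Basal cells form the layer of stratified and some glandular epithelia that rests on the basement membrane. In normal prostate glands they lie beneath the luminal cells, and a loss of basal cells is a hallmark of prostate adenocarcinoma. TP63 encodes p63, the transcription factor required to build and maintain basal layers. Its upstream promoter gives TA isoforms and its internal promoter gives deltaN isoforms, the main form in basal cells. Keratins 5, 14 and 17 form the intermediate filaments of these cells. The other members belong to the hemidesmosome, the junction that ties keratin filaments to the basement membrane. Integrins alpha 6 (ITGA6) and beta 4 (ITGB4) form its laminin receptor, collagen XVII (COL17A1) is its second transmembrane protein, and the epithelial form of dystonin (DST) links it to keratin inside the cell. LAMB3 encodes the beta 3 chain of laminin-332, the ligand of that integrin. FOXA2 is a forkhead pioneer factor that can bind closed chromatin, and JUN and FOSL1 are subunits of AP-1, a dimer that binds TGAGTCA or its reverse complement.

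LNCaP is an adenocarcinoma line with an active androgen receptor. PC3 has neither the receptor nor neuroendocrine features, and NCI-H660 comes from a neuroendocrine tumor. FOXA2 was profiled in PC3 cells given vehicle, 10 µM ORY-1001 or 0.5 µM C12 for 4 h, and in NCI-H660 cells given vehicle or 10 µM ORY-1001 for 4 h. Both compounds inhibit the histone demethylase LSD1. JUN was profiled in PC3 and NCI-H660 cells after transfection of a negative control siRNA (siNC) or of one that targets FOXA2 (siFOXA2), and FOSL1 in PC3 cells only. In LNCaP cells JUN was profiled after siNC or siFOXA1. It was also profiled in a stable line with lentiviral FOXA2 (FOXA2OE) and in one with FOXA2 carrying K265R. FOXA2 was profiled in FOXA2OE cells. The samples of both stable lines were labelled as vehicle. PC3 cells labelled as vehicle also gave ATAC-seq and H3K27ac lists and 2 further FOXA2 lists whose antibody was not labelled. Below, FOXA2 under vehicle in PC3 cells means the list set against the inhibitor lists, and not these 2. NCI-H660 cells labelled as vehicle gave ATAC-seq and H3K4me2 lists, marks of open and of primed or active chromatin. The cells are single lines, and no RNA was measured in these lists, so they show chromatin at the basal genes and not whether the genes were expressed.

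Each group had 1 list, apart from those 2 further FOXA2 lists, so no comparison between conditions could be tested. Intervals are 95% and cover counting error only. They treat the regions of a list as independent, and no list gives its depth. A region carries the score of the peak caller, which is larger the further the region stands above background, and scores are compared as listed values without an error. Lists ranged from 1538 regions (FOSL1 after siFOXA2) to 210960 (PC3 ATAC). The lowest score was 13 in most lists but 30 and 23 in the JUN lists of FOXA2OE and K265R cells, so list lengths do not have 1 common threshold. The JUN lists of LNCaP siNC, FOXA2OE and K265R cells were made in different processing folders, and there folder and condition cannot be told apart. The PC3 JUN lists came from another folder than those of NCI-H660 and LNCaP siNC cells. The PC3 and NCI-H660 ATAC lists also differed in folder, with median region widths of 221 and 530 bp. In these comparisons folder and line cannot be told apart. The title of the K265R sample was followed although another label of it names the FOXA2OE line.

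Of the PC3 vehicle FOXA2 list, the following stretches are those at the basal loci where JUN was also listed and where forkhead and AP-1 words lay within 100 bp of the region centre. The forkhead words searched were TATTT or TGTTT followed by AC, AT, GC or GT, and the AP-1 words were TGAGTCA and TGACTCA, on both strands. Capitals mark the words. The sequences are hg19, + strand, with up to 20 bases on each side. The first lies in an intron of TP63 (chr3:189537951-189538052), with 48 bases between the neighbouring forkhead and AP-1 words.

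TP63 intron: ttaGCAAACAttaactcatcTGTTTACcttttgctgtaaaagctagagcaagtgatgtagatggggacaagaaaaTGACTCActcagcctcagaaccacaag

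The second lies in an intron of DST (chr6:56444149-56444202), where an AP-1 word ends at the base before a forkhead word begins. The third lies beyond the most upstream start of DST, in an intron of BEND6 (chr6:56824876-56824973), with 44 bases between the words.

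DST intron: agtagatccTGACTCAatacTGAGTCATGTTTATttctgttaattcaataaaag

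BEND6 intron: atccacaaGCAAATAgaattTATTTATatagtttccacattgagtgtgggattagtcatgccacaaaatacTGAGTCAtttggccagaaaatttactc

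A further set was chosen after its values were seen. The sequences from ITGA6 (chr2:173306930-173306989) and DST (chr6:56803622-56803728) are the JUN regions with FOSL1 that stayed in the list after siFOXA2, and both hold AP-1 words without a forkhead word.

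ITGA6 intron: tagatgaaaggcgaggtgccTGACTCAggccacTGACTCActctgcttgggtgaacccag

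Upstream DST intron: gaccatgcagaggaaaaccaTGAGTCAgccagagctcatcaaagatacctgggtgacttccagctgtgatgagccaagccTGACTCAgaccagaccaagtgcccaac

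The next sequences come from regions where FOXA2 was listed in both PC3 and NCI-H660 cells, in TP63 (chr3:189430967-189431145, 3 forkhead words) and in DST (chr6:56733602-56733714, 2 forkhead words around an AP-1 word). The last comes from the place downstream of TP63 (chr3:189655553-189655599) where FOXA2, JUN and FOSL1 were all listed in PC3 cells.

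TP63 shared FOXA2 region: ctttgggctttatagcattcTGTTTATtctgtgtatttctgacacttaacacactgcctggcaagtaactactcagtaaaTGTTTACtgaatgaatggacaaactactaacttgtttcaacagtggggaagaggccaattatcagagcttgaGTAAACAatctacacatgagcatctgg

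DST shared FOXA2 region: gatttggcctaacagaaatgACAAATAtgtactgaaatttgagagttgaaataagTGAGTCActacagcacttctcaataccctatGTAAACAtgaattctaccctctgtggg

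TP63 downstream region: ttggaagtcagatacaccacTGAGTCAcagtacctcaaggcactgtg

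JUN and FOXA2 regions of PC3 cells lay more densely at the basal loci than around coding genes in general. JUN was listed at 46 places, or 25.3 per Mb against 8.98 per Mb over the windows of all coding genes, a ratio of 2.81 (2.06 to 3.75). FOXA2 under vehicle was listed at 26 places, or 14.3 against 8.51 per Mb, a ratio of 1.68 (1.10 to 2.46). Accessible regions were denser as well: PC3 ATAC listed 225 places (ratio 1.47) and H3K27ac 124 (ratio 1.84). In NCI-H660 cells the FOXA2 ratio was 1.94 (1.08 to 3.19, 15 places), and the JUN ratio of 1.34 had an interval that included 1 (0.791 to 2.11, 18 places). The members and the gene lists were chosen with earlier results of these data known, so these ratios describe the loci and do not test them.

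The regions were concentrated in the windows of 3 of the 9 genes. JUN of PC3 cells was listed 19 times at DST, 9 times at TP63, 8 times at ITGB4, 3 times each at LAMB3 and ITGA6, and 2 times each at KRT14 and COL17A1. It was not listed at KRT5 or KRT17, so 7 of the 9 loci had a region, beside 62.8% of all coding genes. Counted per 100 kb, the ITGB4 locus (5.86 regions) exceeded 99.8% of coding genes, DST (3.18) exceeded 95.4% and TP63 (2.46) exceeded 89.8%. FOXA2 under vehicle was listed 11 times at DST, 9 times at TP63, 3 times at ITGB4 and once each at KRT5, KRT17 and ITGA6, which made 6 of 9 loci beside 54.1% of coding genes. TP63 stood highest on this count, with 2.46 FOXA2 regions per 100 kb, above 94.4% of coding genes. In the ITGB4 window, all 8 JUN and 3 FOXA2 regions overlapped neighbouring genes (SAP30BP, GALK1, H3-3B or UNK). None overlapped ITGB4 itself, so the density of this window is that of its surroundings.

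**Figure D1:**
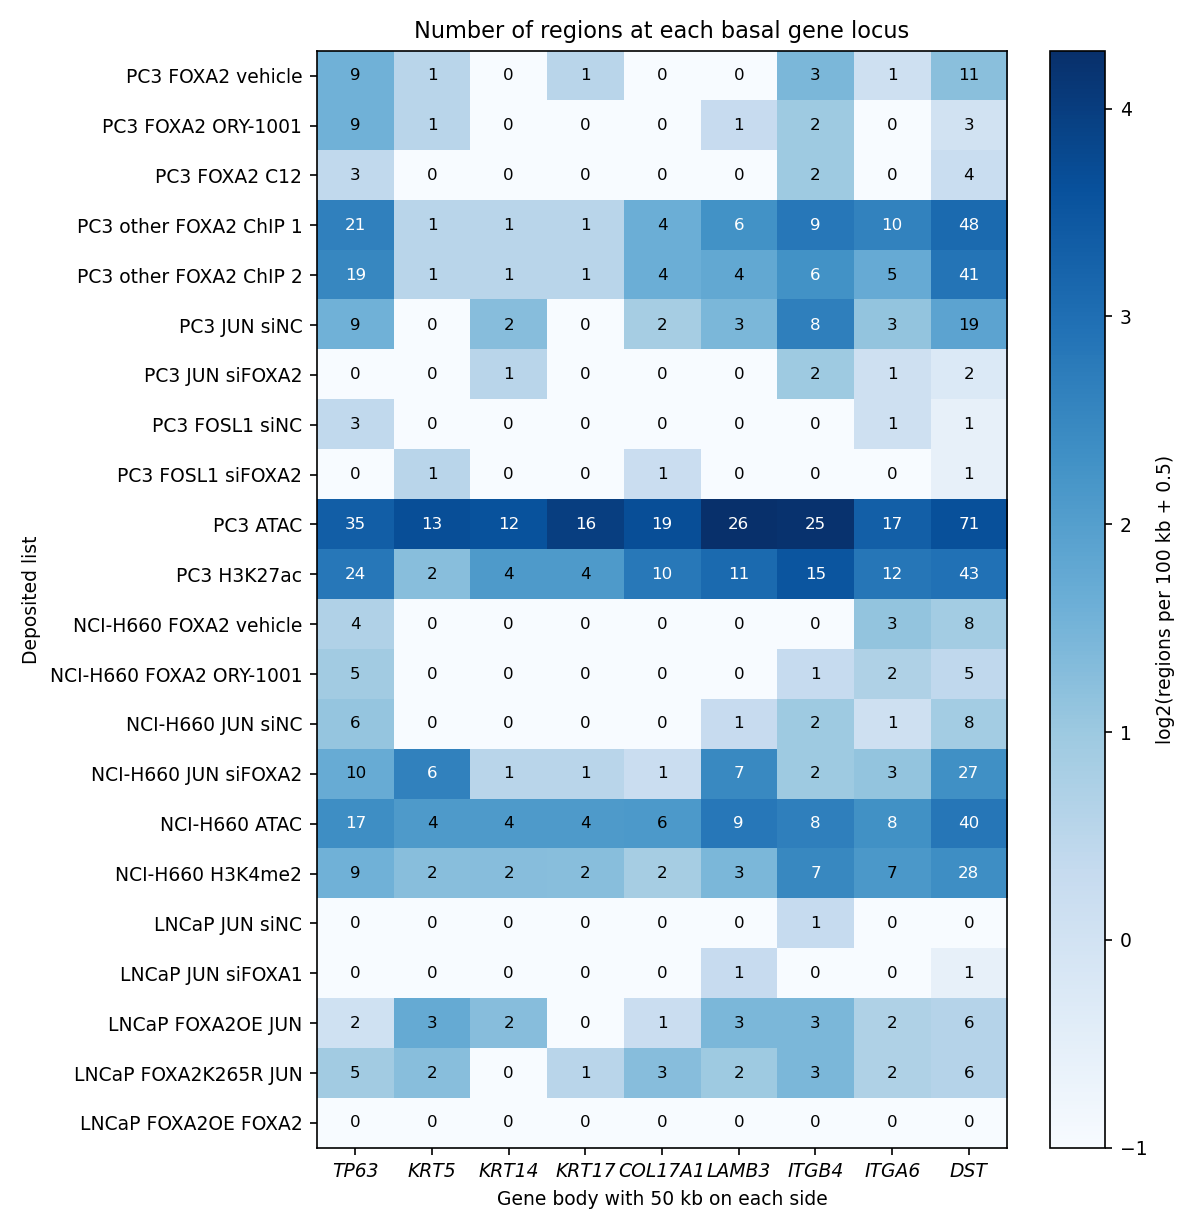
Number of regions of each list (rows) at each basal locus (columns), with colour giving log2(regions per 100 kb + 0.5). In PC3 cells the windows of TP63, ITGB4 and DST hold most FOXA2 and JUN regions. The keratin columns hold between 0 and 2 regions of each PC3 FOXA2, JUN and FOSL1 list.

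The strongest FOXA2 regions at the basal loci ranked high in the whole list. A score above at least 90% of the list was held by 8 of the 26 (9.99% of the whole list by construction) and by 9 of the 46 JUN regions (9.98%). The median FOXA2 score was 170 at the loci and 150 over the list, and the median JUN score was 182 and 150. Introns held 18 of the 26 FOXA2 and 30 of the 46 JUN regions. The nearest gene was the basal gene itself for 19 FOXA2 and 32 JUN regions, and another gene in the window for the other 7 and 14.

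At TP63 the FOXA2 regions lay away from both promoters and most were shared with JUN. The first, in an intron 54.7 kb downstream of the TA start (chr3:189403688-189404132), scored 1131 under vehicle and 655 for JUN. Another lay 76.4 kb upstream of the deltaN start (chr3:189430847-189431247), with 716 for FOXA2 and 324 for JUN. The printed TP63 intron sequence belongs to the region 30.5 kb downstream of the deltaN start (chr3:189537752-189538163), with 355 for FOXA2 and 558 for JUN. These 3 scored highest of the 9 FOXA2 regions at TP63. The other 6 scored between 28 and 162, and JUN was listed at 3 of them. JUN also had 3 places of its own there, with scores of 230, 250 and 415. FOSL1 was listed 3 times at TP63, but only the place 148.1 kb downstream of the deltaN start (chr3:189655427-189655690, score 45), whose nearest gene body was P3H2, was also listed for JUN (479) and FOXA2 (28).

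**Figure D2:**
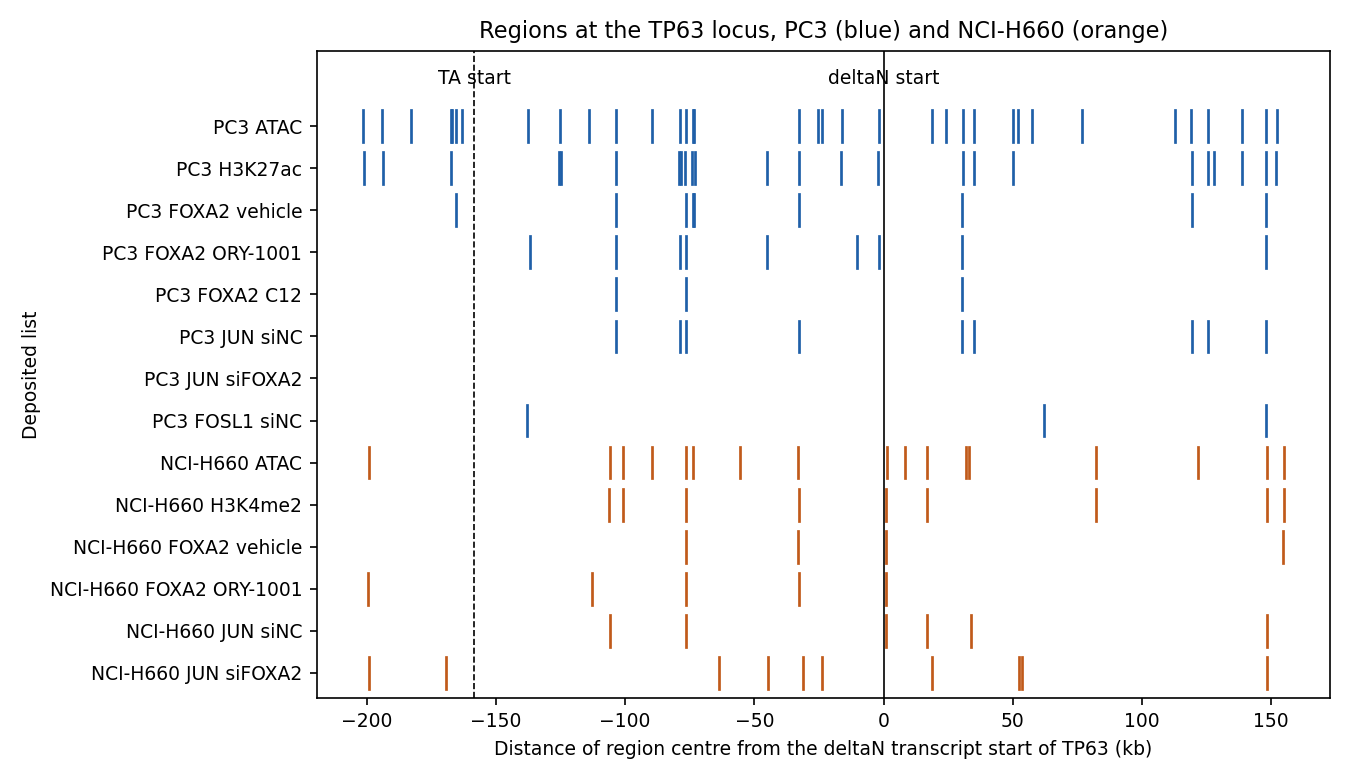
Regions of PC3 (blue) and NCI-H660 (orange) lists along the TP63 locus, by distance in kb from the deltaN transcript start, one tick per region centre. NCI-H660 ATAC, H3K4me2, FOXA2 and JUN have a region about 1.1 kb downstream of the deltaN start where PC3 lists have none, and the PC3 JUN row is empty after siFOXA2.

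The deltaN start of TP63 differed between PC3 and NCI-H660 lists. NCI-H660 ATAC had a region there that scored 2093, with H3K4me2 at 70, FOXA2 at 192 and JUN at 111. The FOXA2 region (chr3:189508349-189508753) was centred 1.1 kb downstream of the start, in an intron. No PC3 list had a region within 1 kb of this start, and the closest PC3 ATAC region (660) was centred 1.77 kb upstream, overlapping H3K27ac (163). The TA start had no ATAC region in either line and was listed in the 2 further PC3 FOXA2 lists alone, with scores of 87 and 102.

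Most of the other basal genes, but not KRT14, had an ATAC region at some coding transcript start in one or both lines. Counting any coding transcript start within 1 kb, PC3 ATAC had regions at 6 of 9 genes (76.3% of all coding genes), namely KRT5, KRT17, LAMB3, ITGB4, ITGA6 and DST. NCI-H660 ATAC also had 6 of 9 (73.4%), with TP63 and COL17A1 in place of KRT5 and KRT17. The ATAC regions of KRT5, KRT17 and COL17A1 lay at other transcript starts than the one used for distances. Within 1 kb of that start, no list of any line had a region for these genes or KRT14. H3K27ac of PC3 was at 4 of 9 (66.9%) and H3K4me2 of NCI-H660 at 5 of 9 (73.2%). FOXA2 under vehicle was at no start in PC3 cells (4.88%) and at 1 in NCI-H660 cells, that of TP63 (3.20%). The longer further FOXA2 lists of PC3 cells had 5 of 9 (20.8%) and 3 of 9 (16.8%), TP63, ITGB4 and DST in both. JUN was at the start of DST alone in PC3 cells (10.5%) and at TP63, LAMB3, ITGA6 and DST in NCI-H660 cells (22.3%). In PC3 cells JUN was listed at several starts of DST. The region at the start of the epithelial transcript, the form found in hemidesmosomes, scored 362 beside 961 for ATAC and 449 for H3K27ac, and those at the most upstream start and at an internal start scored 15 and 73. In NCI-H660 cells the epithelial start had an ATAC region of score 32 and no JUN region.

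Of the keratin loci, none held more than 2 FOXA2 or JUN regions in PC3 cells under vehicle or siNC. The FOXA2 region of the KRT5 window (chr12:52932940-52933207, score 62) was 18.9 kb upstream of KRT5 and nearest to KRT71. That of the KRT17 window (chr17:39824119-39824422, score 165) was 43.4 kb upstream. JUN was listed 38.8 kb downstream of the KRT14 start (chr17:39704151-39704539, score 529) and at 45.7 kb (score 215), nearest to other keratin genes. NCI-H660 cells had no FOXA2 or JUN region under vehicle or siNC at any of the 3 keratin loci, although ATAC listed 4 regions at each.

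At the hemidesmosome genes the PC3 FOXA2 regions lay in the windows of ITGB4 and DST, with 1 upstream of ITGA6 and none at LAMB3 or COL17A1. In the ITGB4 window the region 14.1 kb upstream of the start (chr17:73703186-73703631) scored 806 for FOXA2 and 914 for JUN, and the one 41.5 kb upstream (chr17:73675815-73676260) scored 1072 for FOXA2 and was not listed for JUN. Both overlap SAP30BP, the neighbouring gene. The highest FOXA2 score at any basal locus, 1593, was in an intron of DST (chr6:56548722-56549166), 41.1 kb upstream of the epithelial start, with JUN at 311. DST also held the highest JUN score, 1194 (chr6:56803431-56803911), in an intron 16 kb downstream of its most upstream start, where the vehicle FOXA2 list had no region. LAMB3, which codes for the laminin chain, had JUN regions of 224, 213 and 93, and COL17A1 had 99 and 46.

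FOXA2 and JUN shared 15 of the 26 FOXA2 regions (57.7%, 38.9 to 74.5), beside 44.3% of the whole FOXA2 list. Seen from JUN, 15 of 46 regions had FOXA2 (32.6%), beside 44.5% of the whole JUN list. FOXA2 regions lay in ATAC regions in 23 of 26 cases (89.3% of the list) and in H3K27ac regions in 19 of 26 (58.7%). For JUN these numbers were 44 of 46 (96.0%) and 35 of 46 (77.3%). FOSL1 overlapped 1 of 26 FOXA2 regions (7.24%), and 3 of the 5 FOSL1 regions at the loci overlapped JUN (66.9%). All 26 vehicle FOXA2 regions were in both further FOXA2 lists, beside 92.5% and 90.8% of the whole vehicle list. Those lists were longer and had 101 and 82 regions at the loci. FOXA2 was listed at all 9 basal loci in both, beside 86.5% and 82.9% of coding genes. COL17A1 had 4 and 4 regions and LAMB3 6 and 4.

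A forkhead word lay near the centre of 21 of the 26 FOXA2 regions (77.3% of the list) and of 23 of the 46 JUN regions (43.4%). An AP-1 word lay near the centre of 6 of 26 FOXA2 (26.4%) and 21 of 46 JUN regions (49.5%). Both kinds of word were found in 5 FOXA2 (19.6%) and 7 JUN regions (19.8%), so the printed TP63 and DST stretches are of the less frequent kind. These are matches of letters and not measured binding sites.

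After 4 h of ORY-1001, 9 of the 26 PC3 FOXA2 regions at the basal loci were still listed and 17 were not, beside a loss of 63.2% over the whole list. The kept share was 34.6% (19.4 to 53.8) at the loci and 36.8% in the list. After C12, 9 of 26 were also still listed and 17 were not, beside a loss of 70.4%, and the kept share of the whole list was 29.6%. Both inhibitor lists were set against the same vehicle list. In each case the loci lay within counting error of the whole list.

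The regions that remained had higher median scores under vehicle, although the ranges overlapped. The 9 kept under ORY-1001 had a median vehicle score of 716 (28 to 1593) and the 17 lost a median of 135 (37 to 688). For C12 the medians were 716 (273 to 1593) and 97 (28 to 688). At TP63 the region of score 1131 was listed at 841 after ORY-1001 and 608 after C12. The TP63 region shared with NCI-H660 went from 716 to 274 and 255, and the one with the printed intron sequence from 355 to 45 and 132. At ITGB4 the region 41.5 kb upstream was listed at 1126 and 639 beside 1072 under vehicle, and that at 14.1 kb at 697 and 623 beside 806. The strongest DST region went from 1593 to 1009 and 808. High scores did not always remain: the DST region 10.1 kb upstream of the epithelial start (chr6:56517648-56518115) scored 688 under vehicle and was in neither inhibitor list, nor was the one shared with NCI-H660 (chr6:56733501-56733855, 585).

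Losses were spread unevenly over the genes. With ORY-1001, DST kept 2 of 11 regions, TP63 4 of 9, ITGB4 2 of 3 and KRT5 its only region, while the single regions of KRT17 and ITGA6 were not listed. With C12, DST kept 4 of 11, TP63 3 of 9 and ITGB4 2 of 3, and KRT5, KRT17 and ITGA6 had none. The DST intron region printed above (chr6:56443926-56444438) was absent after ORY-1001 and listed at 56 after C12, from 273 under vehicle. The place downstream of TP63 scored higher after ORY-1001 (80) than under vehicle (28) and was absent after C12. These counts per gene are too small to separate the genes or the compounds.

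**Figure D3:**
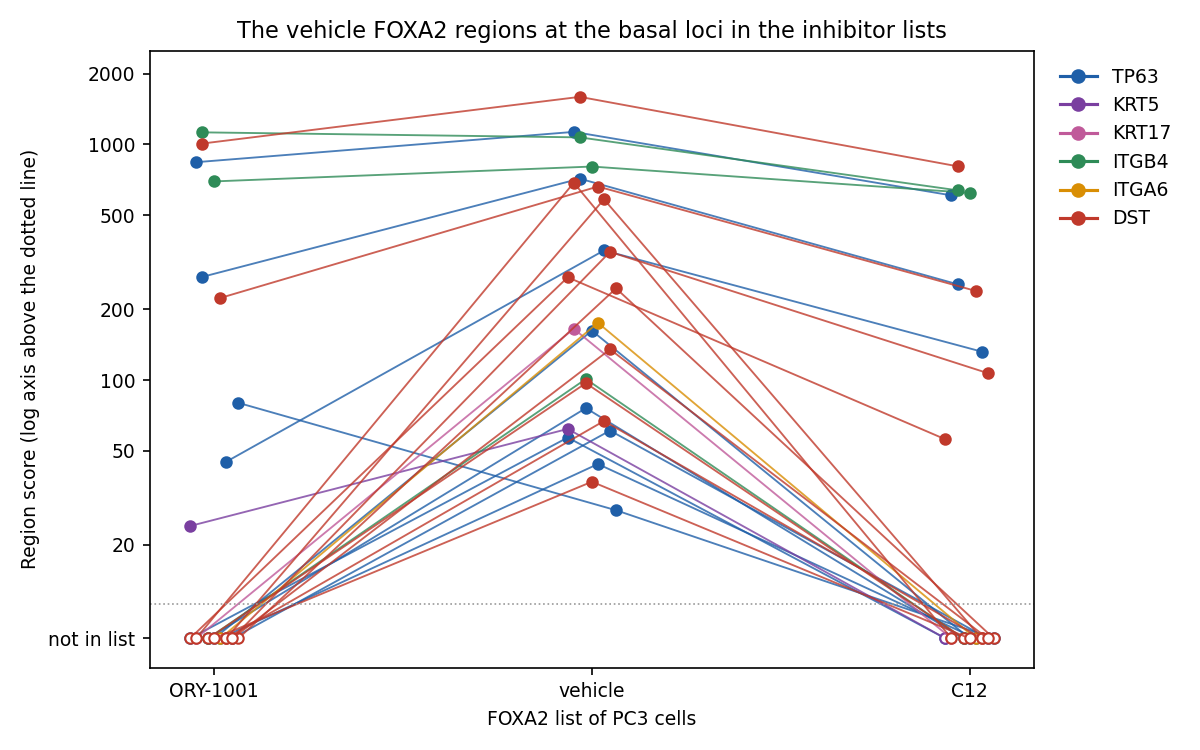
Scores of the 26 vehicle FOXA2 regions at the basal loci in the ORY-1001, vehicle and C12 lists of PC3 cells (log axis, open points at the bottom are not in the list). The 4 highest vehicle scores, between 806 and 1593, and the next, 716, are all listed in each inhibitor list, and lower scores go mostly to the bottom in each.

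Of the 16 regions at the loci after ORY-1001, 7 were not in the vehicle list (35.6% of the ORY-1001 list were new), and after C12 none of 9 was new (14.9%). TP63 had 5 of the 7, with scores of 18, 19, 25, 33 and 92. The last (chr3:189428477-189428756) lay on a JUN region of score 230 and an ATAC region of score 4306, and the one of 19 was the region closest to the deltaN start, 1.9 kb upstream. The 33 (chr3:189462063-189462684) had no ATAC region and overlapped a JUN region of score 95 that NCI-H660 cells showed after siFOXA2. LAMB3 and DST had 1 new region each, with 31 and 69. Both were in the 2 further FOXA2 lists of PC3 cells labelled as vehicle, at 72 and 58 for LAMB3 and 587 and 271 for DST. The TP63 region of 92 was in the second of them (148), and the remaining new TP63 regions were in neither. New here thus means absent from the vehicle list set against ORY-1001, and not absent from all PC3 lists without inhibitor.

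A partner mark went with the fate of FOXA2 regions in the whole list. JUN was listed at 6 of the 9 regions kept under ORY-1001 (64.6% of the list's kept regions) and at 9 of the 17 lost (32.5%). For C12 it was at 7 of 9 (69.5%) and 8 of 17 (33.7%). A forkhead word was near 8 of 9 kept and 13 of 17 lost regions under each compound, and the whole-list shares were 74.9% and 78.6% for ORY-1001 and 75.4% and 78.1% for C12. Kept and lost regions also differed in score, as given above, and the part of the score in this was not tested.

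In NCI-H660 cells ORY-1001 left 10 of the 15 FOXA2 regions at the loci (66.7%, 41.7 to 84.8), with 5 lost beside 31.6% of the whole list. TP63 kept 3 of 4, ITGA6 2 of 3 and DST 5 of 8. The scores of those kept were close to vehicle, for example 192 and 193 at the deltaN start of TP63 and 523 and 575 at its region 76.4 kb upstream. New regions numbered 3 of 13 (29.1%), 2 at TP63 and 1 at ITGB4. The kept share at the loci was higher in NCI-H660 than in PC3 cells under the same dose, but the intervals overlap and the difference was not tested.

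Most JUN regions of PC3 cells at the basal loci were absent after siFOXA2. Of 46, 6 remained (13.0%, 6.12 to 25.7) and 40 were lost, beside 86.6% lost over the list. None of the 6 regions after siFOXA2 was new (21.5% of that list). The number fell by 2.94 on the log2 scale at the loci (interval -4.46 to -1.71), and over the list it fell by 2.55. The 6 that remained had a median siNC score of 655 against 143 for the 40 lost. With the siFOXA2 list covering 16.7% of coding genes, 4 of the 9 loci still had JUN.

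All 9 JUN regions of TP63 were absent after siFOXA2, including those of score 655, 558 and 479. LAMB3 lost its 3 regions and COL17A1 its 2, DST kept 2 of 19, ITGB4 2 of 8, ITGA6 1 of 3 and KRT14 1 of 2. The ITGA6 region (chr2:173306806-173307148), in an intron 14.7 kb downstream of the start, went from 781 to 162. The DST region of 1194 went from 1194 to 204, and a further DST intron region (chr6:56614381-56614730) from 385 to 74. In the ITGB4 window the region 20.8 kb upstream (chr17:73696524-73696897) went from 432 to 162, and that at the start of H3-3B (chr17:73775276-73775749), a histone gene next to ITGB4, from 909 to 177. The KRT14 window kept the region of 529, now at 188. The highest score among those lost, 914, belonged to the ITGB4 region that FOXA2 shared.

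**Figure D4:**
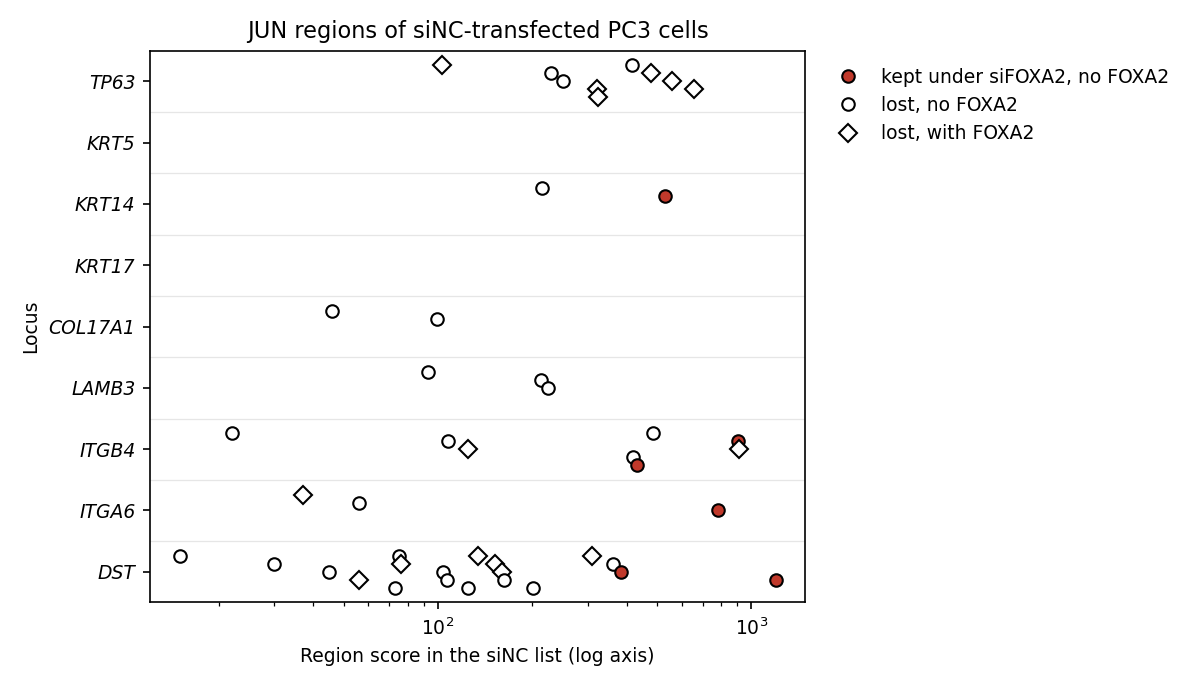
Scores of the 46 JUN regions of siNC-transfected PC3 cells at each basal locus (log axis), filled where JUN was listed after siFOXA2 and diamond-shaped where the vehicle FOXA2 list had a region. The 6 filled points are all circles, at KRT14, ITGB4, ITGA6 and DST, and TP63 has none.

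The JUN regions that remained at the loci all lay outside the vehicle FOXA2 list, as did most of those lost. None of the 15 JUN regions with FOXA2 was kept (0%, 0 to 20.4), and 6 of the 31 without FOXA2 were kept (19.4%, 9.19 to 36.3). Over the whole list the order was the opposite, with 18.3% kept with FOXA2 and 9.42% without. The longer FOXA2 lists moved this split. By the first, 3 of 32 with FOXA2 (9.38%; 12.9% of the list) and 3 of 14 without (21.4%; 14.2%) were kept. By the second, 2 of 30 with (6.67%; 13.0%) and 4 of 16 without (25.0%; 14.0%) were kept. The intervals of the groups overlap at the loci in each case.

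Motif words were counted for the same regions. Of the 6 kept, 5 held an AP-1 word (50.1% of the list's kept regions) and none a forkhead word (32.3%). Of the 40 lost, 16 held an AP-1 word (49.4%) and 23 a forkhead word (45.2%). The printed ITGA6 and upstream DST stretches are kept regions with 2 AP-1 words each, and the printed TP63 intron is a lost region with both. Every kept region lay in ATAC (94.5%) and H3K27ac regions (88.6%), and 38 (96.3%) and 29 (75.6%) of the 40 lost did. ATAC and H3K27ac were measured only in cells labelled as vehicle.

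FOSL1 of PC3 cells had 5 regions at the loci under siNC, none of which was listed after siFOXA2 (93.1% of the list lost). The ITGA6 and upstream DST regions, with 154 and 181, were those where JUN remained, so at these places JUN stayed listed where FOSL1 did not. The FOSL1 lists came from another folder than the PC3 JUN lists and were shorter. They held 3843 and 1538 regions after siNC and siFOXA2, against 23890 and 4081 for JUN. Folder, list length and factor cannot be told apart here. The siFOXA2 list had 3 other regions, at KRT5, COL17A1 and DST (81.5% of that list were new). Their scores were 13, 13 and 22.

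NCI-H660 cells showed the opposite change in number. JUN regions at the loci went from 18 to 57 after siFOXA2, a log2 ratio of 1.66 (0.88 to 2.52), beside 1.69 over the list. Of the 18, 10 remained (55.6%, 33.7 to 75.4), so 8 were lost beside 52.0% of the list, and 47 of the 57 were new (85.2%). All 9 loci then had a region, beside 83.6% of coding genes, where 5 had before (66.3%). DST went from 8 to 27, TP63 from 6 to 10, LAMB3 from 1 to 7 and KRT5 from 0 to 6. The added regions were weak and mostly outside accessible chromatin. The median score of the 57 was 36 against 108 for the 18, and 18 of 57 overlapped ATAC (31.5%) against 17 of 18 (86.0%). The 6 regions of the KRT5 window, at KRT6A and KRT6C, scored between 21 and 62. An AP-1 word was near 4 of the 18 (13.8%) and 7 of the 57 (4.99%). With a score of at least 50 the numbers were 12 and 18, and with at least 100 they were 10 and 5. Over the whole lists they were 12263 and 18720, and 7746 and 4889.

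At TP63 the JUN region of the deltaN start (111) and the one 52.4 kb downstream of the TA start (379) were absent after siFOXA2 in NCI-H660 cells, and 1 of 6 remained. This was the place downstream of TP63 described above, at 106 and 101. LAMB3 kept JUN at its start (chr1:209826370-209826669, 160 and 121), as ITGA6 did (110 and 39). The highest JUN score of NCI-H660 cells at the loci was at an internal start of DST (chr6:56407559-56407990), with 755 and 605.

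**Figure D5:**
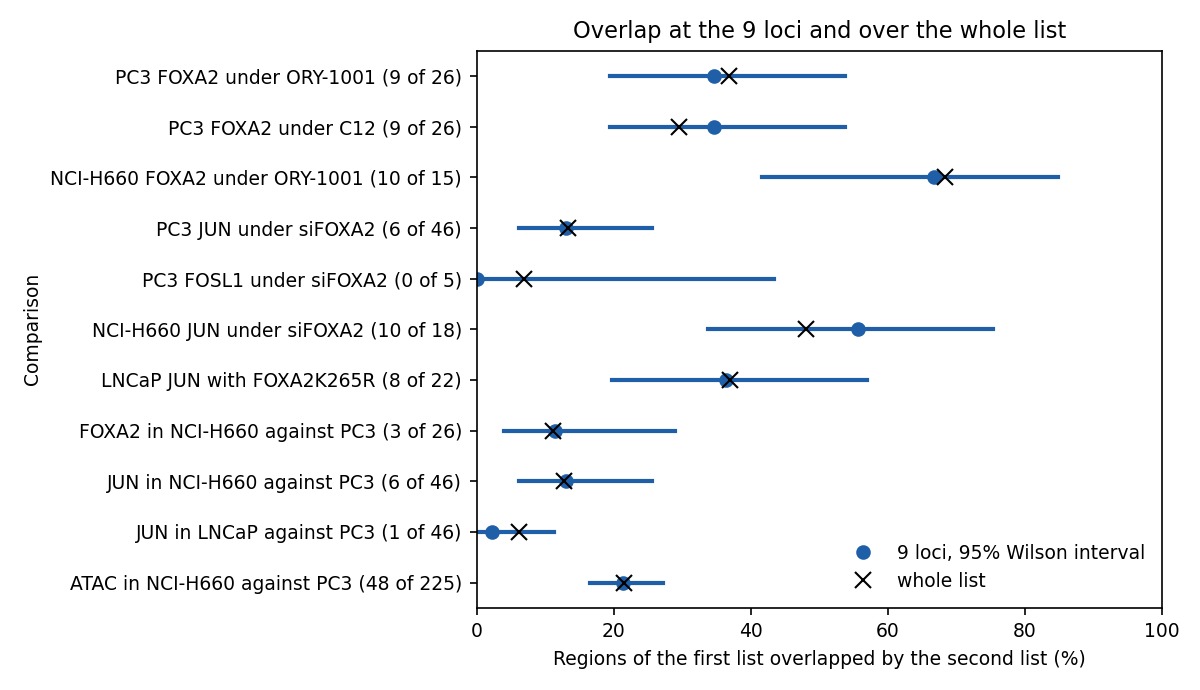
Share of the regions of the first list that the second list overlapped, at the 9 loci (points with 95% Wilson intervals) and over the whole list (crosses), for comparisons with at least 5 regions at the loci. Each cross lies inside the interval of its point.

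PC3 and NCI-H660 cells had few regions in common at the basal loci. FOXA2 of NCI-H660 covered 3 of the 26 PC3 regions (11.5%), so 23 were not shared, beside 88.9% of the list, and 12 of the 15 NCI-H660 regions were not in PC3 (77.5%). The shared places were 2 in TP63, at 716 and 523 and at 44 and 68 in PC3 and NCI-H660 cells, and 1 in DST, at 585 and 303. JUN covered 6 of 46 (87.2% of the list not shared), and 12 of 18 NCI-H660 regions were its own (83.5%). ATAC covered 48 of 225 (78.5% not shared), and 54 of 99 were found only in NCI-H660 (58.8%). Of the FOXA2 regions, 8 of 26 from PC3 lay in NCI-H660 ATAC (22.6% of the list) and 5 of 15 from NCI-H660 lay in PC3 ATAC (35.2%). ITGA6 had FOXA2 in both lines at separate places, 18.4 kb upstream of its start in PC3 (175) and at 3 places in NCI-H660 (42, 95 and 285), where it exceeded 96.0% of coding genes per 100 kb.

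In NCI-H660 cells FOXA2 had 4 regions at TP63, 3 at ITGA6 and 8 at DST, so 3 of 9 loci had one, beside 37.6% of coding genes. JUN overlapped 3 of these 15 (36.4% of the list), ATAC 14 (90.9%) and H3K4me2 7 (62.7%), and 12 held a forkhead word (75.9%). The DST region at chr6:56616859-56617072 scored 96 for FOXA2 and 451 for JUN, and after siFOXA2 JUN was not listed there.

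LNCaP cells had JUN at the loci once after siNC, so 1 of 9 loci had a region, beside 13.4% of coding genes. It covered 1 of the 46 PC3 regions (93.8% of the PC3 list not shared). The place was at the starts of H3-3B and UNK in the ITGB4 window (chr17:73780915-73781258), where JUN was listed in all 3 lines: 486 in PC3, 295 in NCI-H660, 247 in FOXA2OE and 309 in K265R cells. After siFOXA1 the siNC region was gone (50.4% of the list lost) and both regions were new (38.6%), at the start of LAMB3 (49) and at the internal start of DST (40). FOXA2OE cells had 22 JUN regions at 8 of 9 loci (79.5% of coding genes) and K265R cells 24 at 8 of 9 (85.1%). Of the 22, 21 were new against siNC (98.2%), 14 were nearest to a gene other than the basal one, 4 lay on a PC3 JUN region (4.01%) and 9 in PC3 ATAC (29.6%). K265R cells shared 8 of the 22 (63.0% of the FOXA2OE list not shared), and 16 of their 24 were new (81.3%). FOXA2 in FOXA2OE cells had no region at any of the 9 loci, beside 6.04% of coding genes. That list was short, with 2500 regions and 0.465 per Mb over the windows of all coding genes. The density ratio of 0 had an interval of 0 to 4.36, so the absence says little about these loci.

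Other gene lists were counted the same way for scale. JUN of PC3 cells had 25.3 regions per Mb at the 9 basal loci, 26.8 at 6 other hemidesmosome and basement membrane genes (LAMA3, PLEC, CD151, COL7A1, ITGA3, ITGB1), 14.2 at 12 other basal genes, 15.8 at 8 luminal genes and 6.53 at 7 neuroendocrine genes. FOXA2 under vehicle had 14.3, 10.7, 6.78, 7.88 and 2.80 per Mb in the same order. The JUN density of the basal loci was thus not above that of the other hemidesmosome genes. The FOXA2 density of the 12 other basal genes was below the 8.51 per Mb of all coding gene windows and below that of the luminal genes. Their JUN density was above the 8.98 per Mb of all windows but below that of the luminal genes. KRT6A and KRT16, of those 12, lie in windows of the 9 loci, so the 2 lists are not separate. The luminal list is not separate from the basal loci either. A JUN region of PC3 cells in the KRT14 window lies 12584 bp from KRT19, a luminal gene, and counts for both. The luminal JUN density thus includes signal from a basal locus. A JUN region was listed at all 6 other hemidesmosome and basement membrane genes, beside 62.8% of all coding genes. It was listed at 7 of the 12 other basal genes, 6 of the 8 luminal and 4 of the 7 neuroendocrine genes. The lists hold few genes of different length, and their differences were not tested.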

How the data were processed

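ChIP-seq and ATAC-seq of PC3, NCI-H660 and LNCaP cells gave 22 region lists, in 21 groups. Per the submitters' processing notes and the study's methods, the authors aligned reads to hg19 with BWA 0.7.17-r1188, converted files with SAMtools 1.9 and called regions with MACS2 2.1.4, and FastQC 0.11.9 is also named. Control libraries, pooling of libraries, MACS2 settings and the handling of ATAC-seq reads were not given in the sources used here. The deposited value of a region is a whole-number score, kept as the authors gave it, and 2 lists (LNCaP siNC JUN and FOXA2OE FOXA2) hold positions without a score. The score was used to rank and filter regions and was not rescaled. The lists give no read numbers, so depth is unknown.

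Gene bodies came from GENCODE 44 lifted to hg19. A region was kept if a region of the other list overlapped it by at least 1 bp, lost otherwise, and new if it overlapped no control region. Places listed in at least 17 of the 22 lists were to be set apart, and none was found at the loci. Words were searched within 100 bp of region centres. Annotation ranked coding exons and UTRs above introns. Shares have Wilson intervals, numbers exact Poisson intervals and ratios of numbers exact binomial intervals, all 95%. Whole-list and all-gene shares stand beside each count as background. Regions were named by rule: the highest-scoring region of a list at each locus, the highest kept, lost and new region of a contrast, factor regions within 1 kb of a member's start, and places with FOXA2, JUN and FOSL1 in PC3 cells. Others were chosen after their values were seen. The members and lists were chosen with earlier results of these data known. Alternatives were another window, a score minimum, an overlap of 50%, equal numbers of top regions and the further FOXA2 lists. Scripts were tested on simulated lists and run with Python 3.11.15, numpy 2.4.6, scipy 1.17.1 and pyfaidx 0.9.0.4. FOXA2 ChIP of murine cells was not analysed here. A gene of the comparison lists is not reported here and was left out of its list's values.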

Additional observations from a re-analysis of the deposited data

Results flagged for a closer look

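The number of JUN regions at the 9 basal loci moved in opposite directions after siFOXA2 in the PC3 and NCI-H660 lists, which is why both are given here. In PC3 cells it fell by 2.94 on the log2 scale, from 46 to 6, and TP63, LAMB3 and COL17A1 had none left. In NCI-H660 cells the log2 ratio was 1.66, from 18 to 57, with 22 new regions at DST, 9 at TP63 and 6 each at KRT5 and LAMB3. The whole lists moved the same way, by -2.55 and 1.69. Among regions scoring at least 100, a filter chosen after seeing the data, the NCI-H660 number went from 10 to 5, the same direction as in PC3 cells (33 to 5). The whole lists moved the same way under this filter, from 7746 to 4889 in NCI-H660 cells and from 16440 to 1845 in PC3 cells. The difference between the lines was not tested, because each arm had 1 list.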

How the results depend on the processing

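No paired analysis was possible because each group had 1 list and no replicate numbers were shared. Of 88 alternative values for 12 results, 76 stayed within the interval or within 1.5 times the reported number, 12 moved, and none reversed. With gene bodies only, PC3 FOXA2 had 16 regions, PC3 JUN 27 and LNCaP JUN 0, and LNCaP JUN also had 0 with 10 kb flanks. NCI-H660 JUN had 31 regions with 100 kb flanks. The further FOXA2 lists had 101 and 82 regions at the loci, of which 31.7% and 36.6% overlapped JUN. With equal numbers of top regions in both lists, the kept share was 75.0% for PC3 FOXA2 under C12, 42.9% for PC3 JUN and 33.3% for NCI-H660 JUN after siFOXA2, so the length of a list bears on these shares. Chosen after seeing the data, a score minimum of 50 gave a log2 ratio of 0.58 for NCI-H660 JUN, and a minimum of 100 reversed it to -1.0, while PC3 JUN stayed at -2.74 and -2.72. Over the whole lists these ratios were 0.61 and -0.66 for NCI-H660 JUN and -2.87 and -3.16 for PC3 JUN. LNCaP siNC JUN has no score, so no score minimum could be set. With 1 list per group and unknown depth, a lost region may be one that fell below the caller's threshold.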

Other observations

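Several places at the basal loci were listed for JUN across lines and lay at promoters. At the start of LAMB3 the NCI-H660 region (160 after siNC and 121 after siFOXA2) was also listed in LNCaP cells after siFOXA1 (49) and with K265R (193), and PC3 cells had ATAC (1413) within 1 kb but no JUN region there. At the internal start of DST JUN was listed at 73 in PC3, 755 in NCI-H660, 40 after siFOXA1, 78 in FOXA2OE and 152 in K265R cells.

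An intron of TP63 45.1 kb upstream of the deltaN start was listed without an ATAC region in either line, for FOXA2 after ORY-1001 in PC3 cells (33), for JUN after siFOXA2 in NCI-H660 cells (95) and for JUN in K265R cells (88). PC3 cells had a weak H3K27ac region there (28), and the place was in no FOXA2 list under vehicle and no JUN list after siNC.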
